A study of Homo sapiens with 2 samples.

Results

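Glucose enters a cell through transporters of the SLC2A (GLUT) family and is broken down to pyruvate by the glycolytic enzymes, after which it is reduced to lactate or oxidised in mitochondria. The genes described here are 33 members of this route, taken from a given list and found by gene symbol among 28117 named genes: 8 transporters, 15 glycolytic enzymes, 3 PFKFB regulators and 7 genes of the lactate and pyruvate branch. Counts and TPM (a level scaled to transcript length and to the library) were summed over all RefSeq transcripts of a symbol. Poly-A RNA came from HEK293T, a human embryonic kidney cell line, with 1 library of cells transfected with a tRF-3004b mimetic and 1 library of cells transfected with a non-targeting control RNA. A tRF is a small RNA cut from a transfer RNA. Each RNA carried a 5' phosphate and was used at 500 nM, cells were grown in high glucose medium, and RNA was collected after 120 h. No untransfected cells were analysed here.

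Both transfected RNAs are shown because they are what the comparison is about; capitals mark bases 2 to 8, the seed by which an Argonaute-bound small RNA pairs with its targets.
tRF-3004b: uCAAAUCUcgguggaaccucca
control: cGUACGCGgaauacuucgauu

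In HEK293T and other rapidly dividing cells, glycolysis runs at a high rate and much of the pyruvate leaves as lactate. Flux is controlled mainly at transport, hexokinase and phosphofructokinase. The PFKFB enzymes make and remove fructose-2,6-bisphosphate, the activator of phosphofructokinase. Pyruvate dehydrogenase commits pyruvate to oxidation, and the PDK kinases switch it off by phosphorylation.

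The tRF-3004b library held 1809193 estimated counts and the control library 19609933, so the control library was 10.8-fold deeper. With 1 library per group there is no replicate check, no p-value is given, and every comparison is between these 2 libraries. Each log2 ratio is tRF-3004b over control, and its 95% interval covers counting error only. All 8 markers of the HEK293 line had counts in both libraries, with sums of 1358 CPM in the tRF-3004b library and 1855 CPM in the control library (CPM, counts scaled to library size). VIM made up most of both sums, with 979.5 CPM in the tRF-3004b library and 1447 CPM in the control library. Single markers of the line went both ways, from EYA1 at a log2 ratio of -1.30 to INA at 1.22. Marker sums of other cell types were higher in the tRF-3004b library for fibroblasts (116 CPM against 36.1 CPM in the control library), epithelium (36.6 against 10.5 CPM), blood (46.7 against 2.46 CPM) and muscle and liver (4.5 against 0.552 CPM). These sums cover a wide spread, and many single values rest on few counts. Fibroblast markers ran from FBLN1 at a log2 ratio of -0.19, with 473 of 719 control counts, to COL1A2 at 5.18. Epithelial markers with counts ran from EPCAM at 0.71 to KRT20 at 4.54. Blood markers ran from HBB at 2.27, with 1 count in each library, to JCHAIN at 4.72. All 7 fibroblast, all 6 blood and 5 of 6 epithelial markers had counts in both libraries, and 2 and 3 of 6 muscle and liver markers in the tRF-3004b and control libraries. KRT5 was at 0 in both; MYH7 and APOA1 were at 0 in both, CKM and ALB in the tRF-3004b library and TTR in the control library. The part of these RNAs in the results was not tested. In bulk RNA, fewer cells of a type and less RNA per cell cannot be told apart.

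All 33 genes had a mean CPM of at least 1, and 25 had at least 10. In scaled counts, the abundant enzymes of the later steps and LDHA were higher in the tRF-3004b library, while SLC2A12, SLC2A13, PFKFB2 and PDK1 were lower. At least 2-fold higher were 2 of the 33 genes, PKM and SLC2A6, against 12.2% of 13750 genes. At least 2-fold lower were 5 genes, SLC2A12, PFKFB4, PFKFB2, SLC2A10 and SLC2A13, against 14.2% of all genes. Both shares, 6.06% and 15.2%, were near or under the background. With gene TPM and 1 added in place of scaled counts, 0 of the 33 were 2-fold higher and 8 were 2-fold lower, against 4.95% and 17.7% of all genes on that scale. Of all genes past 2-fold, 21.8% were then higher, and 46.3% with scaled counts. The interval lay wholly above 0 for 12 of the 33 genes (36.4%, against 23.3% of all genes) and wholly below 0 for 9 (27.3%, against 28.6%). Among the 25 well-counted genes, 1 was at least 2-fold higher (4%, against 6.12% of 8711 genes with the same mean CPM) and 3 were at least 2-fold lower (12%, against 8.55%). Of these 25, 12 intervals lay above 0 (48%, against 26.8%) and 8 below (32%, against 36.7%). The median log2 ratio of the 33 genes was 0.01 and that of all genes -0.11. The 33 genes together held 11101 TPM in the tRF-3004b library and 9626 TPM in the control library, or 1.11% and 0.963% of all TPM.

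**Figure D1:**
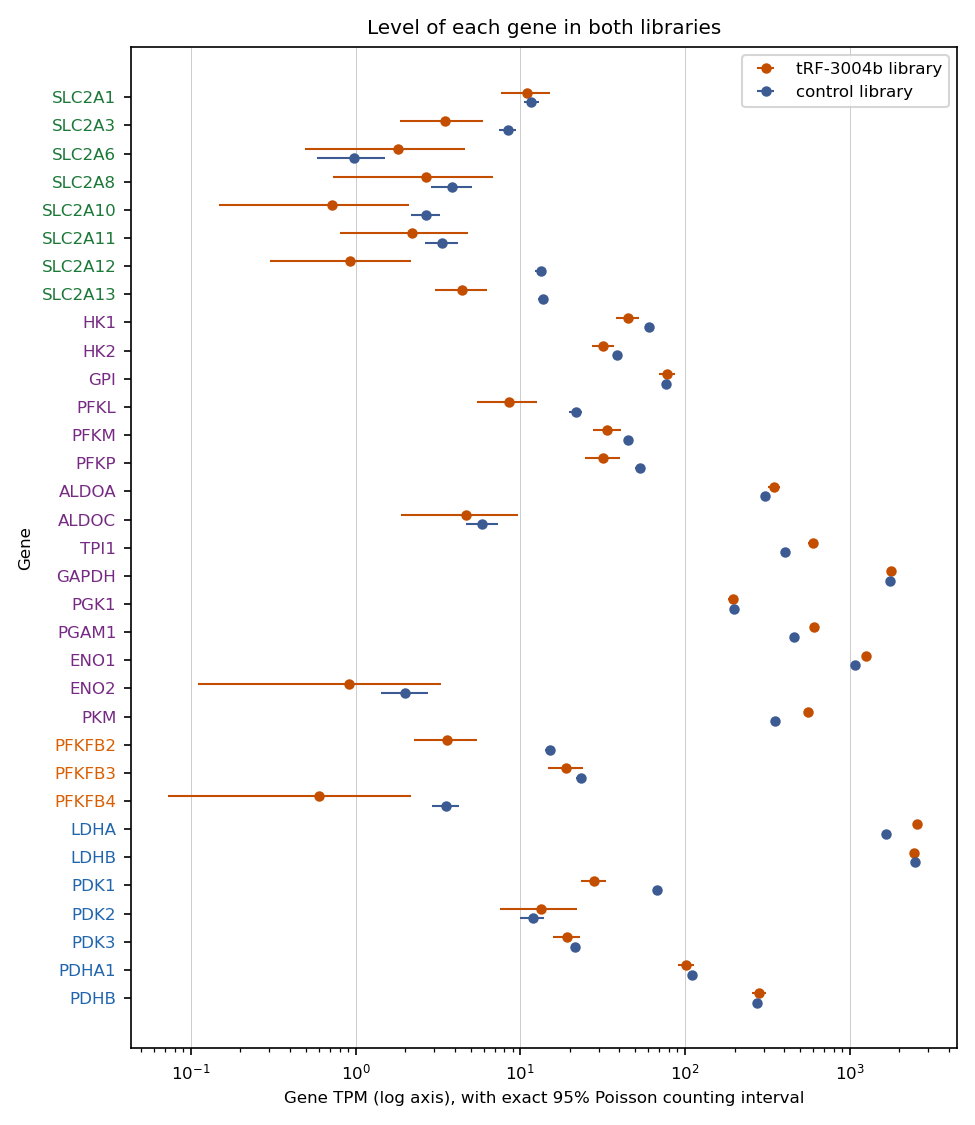
Gene TPM (log axis) in the tRF-3004b library (orange) and the control library (blue), 1 point per library, with exact Poisson 95% counting intervals and gene names coloured by class. LDHA, LDHB, GAPDH and ENO1 are the highest in both libraries, while no transporter is above 13.8 TPM.

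The 8 transporters were at low levels, 27.2 TPM together in the tRF-3004b library and 58 TPM in the control library. The log2 ratio over their summed counts was -1.05 (interval -1.35 to -0.77). That sum rests largely on SLC2A13 and SLC2A12, which held 878 and 651 of the 2395 control counts. In the tRF-3004b library they held 32 and 5 of 103 counts. Of the 8, 6 were below 0, and 3 intervals (SLC2A3, SLC2A12 and SLC2A13) lay wholly there with none above. Transporter levels were ordered differently in the 2 libraries. SLC2A1, or GLUT1, the transporter of basal uptake in most cells, led in the tRF-3004b library with 11 TPM (interval 7.69 to 15.2). In the control library SLC2A13 with 13.8 TPM (12.9 to 14.7), SLC2A12 with 13.3 TPM (12.3 to 14.4) and SLC2A1 with 11.7 TPM (10.5 to 13) stood close together, and the first 2 did not differ beyond counting error. SLC2A1 thus made up 40.3% of transporter TPM in the tRF-3004b library and 20.2% in the control library, with its own log2 ratio at 0.25 (interval -0.29 to 0.75) in scaled counts and -0.09 on the TPM scale.

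SLC2A12, or GLUT12, an insulin-responsive family member in some tissues (chromosome 6, 133987581 to 134052624, GRCh38), had 5 counts (2.81 CPM) in the tRF-3004b library and 651 counts (32.6 CPM) in the control library. It was 11.3-fold lower, a log2 ratio of -3.50 (interval -5.16 to -2.31), the lowest of the 33 genes. Transcripts of TBPL1, a relative of the TATA-binding protein, hold 38.4% of SLC2A12's 31-base words on the opposite strand. The library kit marks strand, but whether the counting used it is not stated in the labels. TBPL1 had 117 and 1187 counts in the tRF-3004b and control libraries, and the sum of both genes had a log2 ratio of -0.42, so the size of the SLC2A12 difference rests on how reads were divided between them. With that sum in place of SLC2A12, the transporters' median moved to -0.32, against -0.58. The transporters' summed counts and TPM shares rest on the same division of reads.

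SLC2A13, a proton and myo-inositol cotransporter (chromosome 12, 39755025 to 40106081), had 32 counts (18 CPM) in the tRF-3004b library and 878 counts (44 CPM) in the control library, 2.44-fold lower. Its log2 ratio was -1.29 (interval -1.85 to -0.78). SLC2A3, or GLUT3, the high-affinity transporter known from neurons, had 7.32 CPM in the tRF-3004b library and 14 CPM in the control library, a log2 ratio of -0.93 (interval -1.86 to -0.14). Set against SLC2A1 by their counts alone, which needs no scaling of libraries, SLC2A3 was lower by a log2 ratio of ratios of -1.15 (interval -2.25 to -0.20). SLC2A10, SLC2A11, SLC2A8 and SLC2A6, the last 2 known from intracellular membranes, had only 3, 6, 4 and 4 counts in the tRF-3004b library. Their log2 ratios were -1.50, -0.22, -0.18 and 1.17, and each interval held 0, as for SLC2A6 from -0.77 to 2.83.

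**Figure D2:**
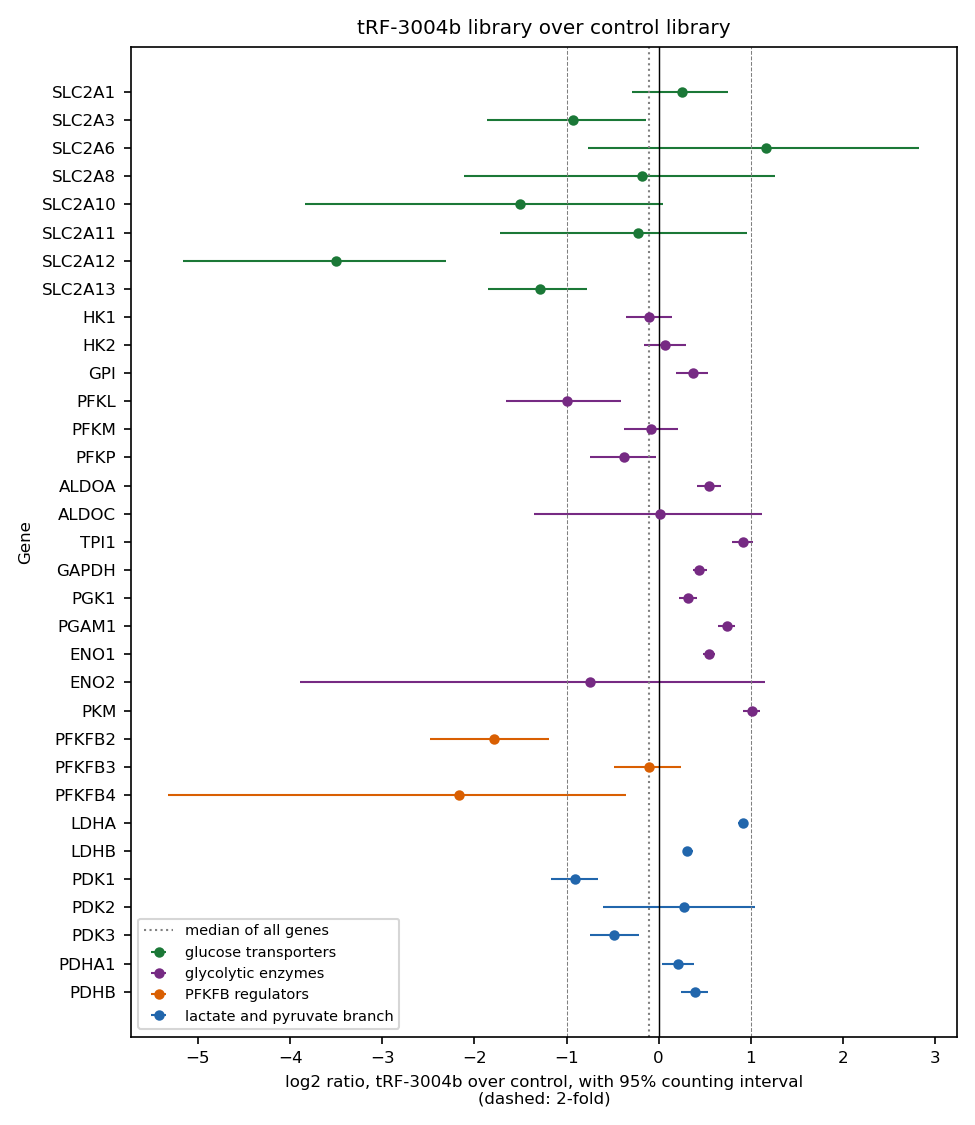
The log2 ratio of tRF-3004b over control for each gene, with exact conditional 95% counting intervals, coloured by class; the dotted line is the median of all genes (-0.11) and dashed lines mark 2-fold. The enzymes from ALDOA to PKM with narrow intervals lie right of 0, and SLC2A12, PFKFB2 and PFKFB4 lie farthest left.

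At the first steps of glycolysis the hexokinases were close to equal in scaled counts, GPI was higher and phosphofructokinase lower. The hexokinases HK1 and HK2, which trap glucose as its phosphate, together had a log2 ratio of -0.01 (interval -0.18 to 0.15). HK1 had 86.7 CPM in the tRF-3004b library and 93 CPM in the control library, and HK2 had 96.3 and 91.4 CPM in the same order, with log2 ratios of -0.10 and 0.07 that stood at -0.43 and -0.27 on the TPM scale. Per length, HK1 was the more abundant hexokinase in both libraries, with 58.5% of hexokinase TPM in the tRF-3004b library and 61.1% in the control library. GPI, which converts glucose-6-phosphate to fructose-6-phosphate, had 178 CPM in the tRF-3004b library and 138 CPM in the control library, a log2 ratio of 0.37 (interval 0.19 to 0.53).

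Phosphofructokinase, the committed step, was lower as a sum, with 74.3 TPM in the tRF-3004b library and 119.9 TPM in the control library and a log2 ratio of summed counts of -0.33 (interval -0.55 to -0.12). The liver-type subunit PFKL (chromosome 21, 44300053 to 44327373) had 24 counts (13.5 CPM) in the tRF-3004b library and 540 counts (27.1 CPM) in the control library. It lay just short of 2-fold lower (log2 interval -1.66 to -0.41), while PKM lay just past 2-fold higher. The platelet-type subunit PFKP was at -0.38 (interval -0.75 to -0.03) and the muscle-type subunit PFKM at -0.08 (interval -0.38 to 0.21). PFKM was higher relative to PFKL by a log2 ratio of ratios of 0.90 (interval 0.25 to 1.64), whereas the interval of PFKP against PFKL, from -0.09 to 1.38, held 0. PFKL made up 11.5% of phosphofructokinase TPM in the tRF-3004b library and 18.1% in the control library.

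The PFKFB regulators were all below 0 in scaled counts, PFKFB3 being above 0 (0.13) once a trend with transcript length was removed, and the intervals of PFKFB2 and PFKFB4 lay wholly below 0. PFKFB2, the form known from heart (chromosome 1, 207034416 to 207081027), had 22 counts (12.4 CPM) in the tRF-3004b library and 859 counts (43.1 CPM) in the control library, 3.46-fold lower. Its log2 ratio was -1.79 (interval -2.48 to -1.19). PFKFB4, a hypoxia-responsive form, had 2 and 107 counts in the tRF-3004b and control libraries, a log2 ratio of -2.17 with a wide interval from -5.32 to -0.36. PFKFB3, the form with the strongest bias toward making fructose-2,6-bisphosphate, had 39.4 CPM in the tRF-3004b library and 42.5 CPM in the control library, at -0.11 (interval -0.48 to 0.24). PFKFB3 therefore took 81.8% of PFKFB TPM in the tRF-3004b library and 55.6% in the control library. Relative to PFKFB2 it was higher by a log2 ratio of ratios of 1.67 (interval 0.96 to 2.47). In all, 15 pairs of related genes were compared, and the interval excluded 0 for 7. The pair ratios and their intervals are not corrected for transcript length. No such share was computed over other gene pairs. Of all single genes, 23.3% had an interval wholly above 0 and 28.6% wholly below, so intervals off 0 were common.

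From aldolase to pyruvate kinase, each step's main enzyme had more scaled counts in the tRF-3004b library, though PGK1 crossed 0 on the TPM scale and GAPDH once the length trend was removed. The sugar-splitting ALDOA had 521 counts (347 TPM) in the tRF-3004b library and 3988 counts (305 TPM) in the control library, a log2 ratio of scaled counts of 0.55 (interval 0.42 to 0.68). TPI1, which interconverts the triose phosphates, had 416 CPM in the tRF-3004b library and 221 CPM in the control library and a log2 ratio of 0.91 (interval 0.80 to 1.02). GAPDH, the oxidising step, had 921 and 677 CPM in the same order, at 0.44 (interval 0.37 to 0.52). The enzymes that follow spread over a similar range. PGK1, the first ATP-forming step, stood at 0.32 (interval 0.22 to 0.42), the mutase PGAM1 at 0.74 (interval 0.64 to 0.83) and ENO1, the general enolase, at 0.55 (interval 0.48 to 0.61). The minor aldolase ALDOC and the neuronal enolase ENO2 had 7 and 2 counts in the tRF-3004b library, and their intervals held 0. ALDOA held 98.7% of aldolase TPM in the tRF-3004b library and 98.1% in the control library, and ENO1 99.9% and 99.8% of enolase TPM.

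PKM, pyruvate kinase, which makes ATP and pyruvate (chromosome 15, 72199029 to 72231591), had 1237 counts (696 CPM) in the tRF-3004b library and 6903 counts (346 CPM) in the control library. It was 2.01-fold higher, a log2 ratio of 1.01 (interval 0.92 to 1.10). Per length it stood at 560.1 TPM in the tRF-3004b library and 353 TPM in the control library. TPI1 had 599.9 TPM and PGAM1 609 TPM in the tRF-3004b library, so that these 3 enzymes were near one another there. Values of PGAM1, ALDOA, TPI1, GAPDH, HK2, LDHB and SLC2A11 carry an added uncertainty, since unmeasured pseudogenes or overlapping genes hold at least 10% of their 31-base words, up to 38.9% for ALDOA. PGAM4, SLC2A14, SAMD14 and MAP3K15, measured genes that share sequence with PGAM1, SLC2A3, PDK2 and PDHA1, had at most 9 counts in the tRF-3004b library.

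The scale matters for this group. On the scale of gene TPM with 1 added, the median of all genes moved by -0.28, to -0.38. There GAPDH was at 0.01, PGK1 at -0.02 and GPI at 0.02, which is 0.40, 0.36 and 0.40 above that median. PKM at 0.66, TPI1 at 0.57, PGAM1 at 0.40, ENO1 at 0.21 and ALDOA at 0.18 stayed above 0. Of the 15 enzymes, 10 were above the median of all genes on the TPM scale and 12 with TMM-scaled counts. Of the 33 genes, 10 were above 0 under every scaling and alternative that gave each gene a value, 13 were below 0, and 10 crossed 0.

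Log2 ratios also ran with transcript length across all genes. Over 10 bins of genes by length, the median was 0.62 in the shortest bin (median 925 bases) and -0.44 in the longest (9015 bases). The glycolytic enzymes had a median length of 2294 bases and the transporters 3594 bases. After the median of each gene's own length bin was subtracted, the enzymes' median was 0.28 and the transporters' -0.61, against 0.32 and -0.58 before. GAPDH, the shortest at a TPM-weighted length of 1015 bases, then stood at -0.17. That length averages mainly the non-coding NR_152150, of 763 bases, and NM_002046, of 1285 bases. GAPDH's length bin thus rests on the estimated shares of these transcripts. PKM then stood at 0.98, PGK1 at 0.65, SLC2A12 at -3.15, PFKFB2 at -1.44 and SLC2A13 at -0.94. The part of length in any single value was not tested.

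**Figure D3:**
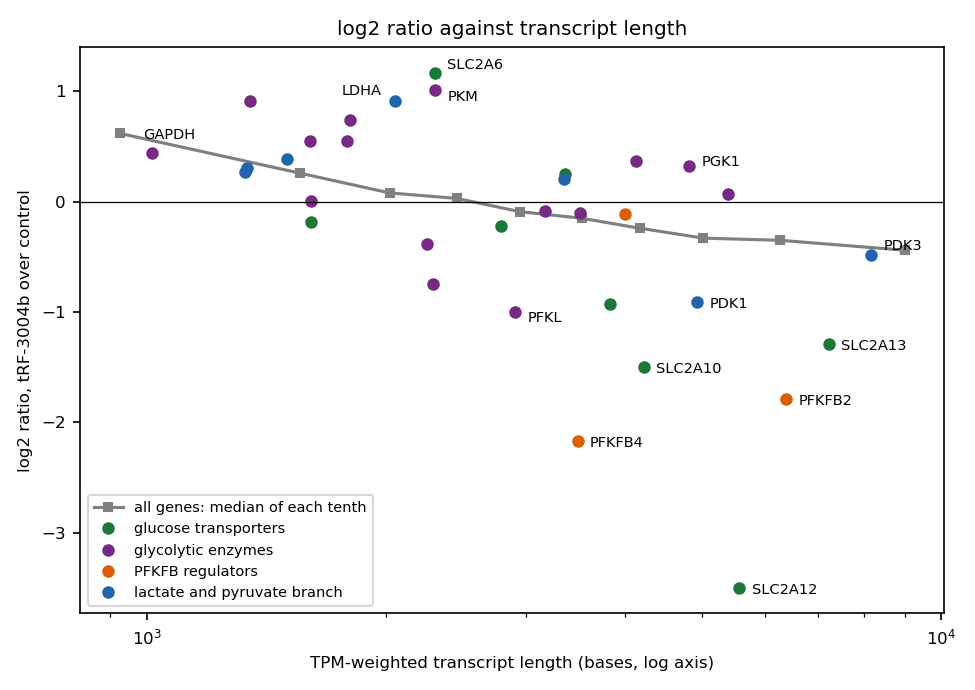
The log2 ratio of tRF-3004b over control against TPM-weighted transcript length (log axis) for the 33 genes, coloured by class, with the median of all genes in each of 10 length bins in grey. PKM and PGK1 lie above the grey line and SLC2A12, PFKFB2, PFKFB4 and SLC2A10 far below it, while GAPDH and PDK3 lie near it.

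Lactate dehydrogenase, which turns pyruvate into lactate and back, was the most abundant step of all, with 5031 TPM in the tRF-3004b library and 4172 TPM in the control library. LDHA, the subunit that favours lactate formation (chromosome 11, 18394563 to 18408425), had 4940 counts (2781 CPM) in the tRF-3004b library and 29612 counts (1485 CPM) in the control library. It was 1.87-fold higher, a log2 ratio of 0.91 (interval 0.86 to 0.95). LDHB, the subunit that favours pyruvate formation, had 1680.4 CPM in the tRF-3004b library and 1354 CPM in the control library, at 0.31 (interval 0.26 to 0.37). On the TPM scale LDHB was at -0.03. The balance of the 2 subunits differed on every scale: LDHB against LDHA had a log2 ratio of ratios of -0.59 (interval -0.66 to -0.52) by counts and -0.65 by TPM. LDHA made up 51.2% of LDH TPM in the tRF-3004b library and 40% in the control library. The subunits' TPM intervals overlapped in the tRF-3004b library (LDHA 2506 to 2650.0, LDHB 2366 to 2543), so neither led there beyond counting error, and LDHA had more counts than LDHB in both libraries.

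At the entry to mitochondria, PDK1 and PDK3, kinases that inhibit pyruvate dehydrogenase, were lower, and the subunits of the enzyme itself were higher in scaled counts, PDHA1 crossing 0 on the TPM scale. PDK1, a kinase induced in hypoxia (chromosome 2, 172555373 to 172724312), had 137 counts (77.1 CPM) in the tRF-3004b library and 2894 counts (145 CPM) in the control library. Its log2 ratio was -0.91 (interval -1.17 to -0.66), and -1.24 on the TPM scale. PDK3 had 67.6 CPM in the tRF-3004b library and 94 CPM in the control library, at -0.48 (interval -0.75 to -0.21) and -0.03 once the length trend was removed, since the median of its length bin was -0.44. PDK2, with 15 and 139 counts in the tRF-3004b and control libraries, was at 0.27 (interval -0.60 to 1.05). PDK1 was 46.1% of the TPM of these kinases in the tRF-3004b library and 66.8% in the control library. Most of that PDK1 TPM lay in the non-coding transcript NR_103729. It held 75.7% (21.1 TPM) in the tRF-3004b library and 82% (55.1 TPM) in the control library. The kinase shares are thus not shares of coding transcripts. PDK2 and PDK3 were higher relative to PDK1, over all its transcripts, by log2 ratios of ratios of 1.23 (interval 0.27 to 2.01) and 0.44 (interval 0.06 to 0.81). These ratios and intervals are not corrected for length. With the length trend removed, PDK1 stood at -0.58, PDK2 at 0.01 and PDK3 at -0.03, so the kinases were then closer together. PDHA1 and PDHB, the E1 subunits of pyruvate dehydrogenase, had log2 ratios of 0.21 (interval 0.04 to 0.38) and 0.39 (interval 0.24 to 0.54). On the TPM scale PDHA1 was at -0.13 and PDHB at 0.05, and their balance, with an interval from -0.05 to 0.41, could not be told from equal.

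**Figure D4:**
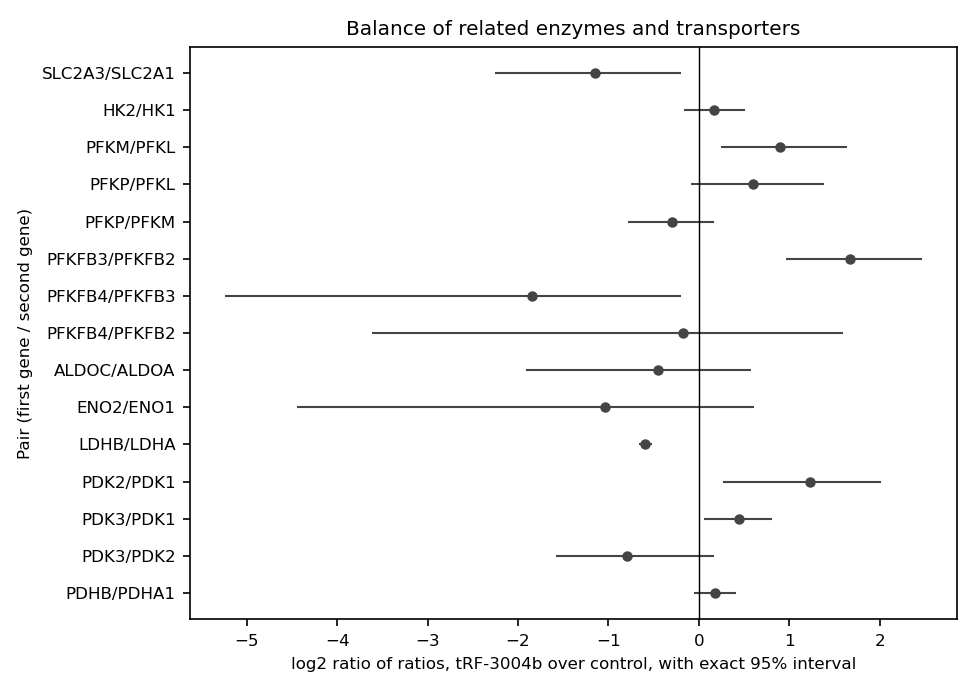
The log2 ratio of ratios (tRF-3004b over control, first gene over second) for 15 pairs of related genes, from the 4 counts of each pair, with exact 95% intervals. The interval excludes 0 for 7 pairs, narrowest for LDHB/LDHA at -0.59, and holds 0 for 8. Neither ratios nor intervals are corrected for transcript length. No such share was computed over other gene pairs.

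Transcript shares within genes were compared for 16 of the 33 genes, those with at least 2 transcripts and 100 counts in both libraries. The share of some transcript differed by at least 10 percentage points in 8 of them, which is no more than the 52.6% of 2754 genes where this was so. Shares are the authors' kallisto estimates from unequal depths, and their assignment error is not covered by a counting interval.

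In PKM, the M2 transcript NM_002654, the form of proliferating cells, held 83.1% of gene TPM in the tRF-3004b library and 96.1% in the control library. The M1 transcript NM_182471, the form of muscle and brain, held 14% and 2.83% in the same order, or 78.3 TPM in the tRF-3004b library and 10 TPM in the control library. As a share of PKM counts this was 13.9% (exact binomial interval 12 to 16) in the tRF-3004b library and 2.82% (interval 2.45 to 3.24) in the control library. Of the 6 muscle and liver markers, DES had 7 counts (3.94 CPM) in the tRF-3004b library and 2 (0.1 CPM) in the control library. Its log2 ratio was 4.45 (interval 2.90 to 8.60). CKM had 0 and 7 counts (0 and 0.351 CPM) in the same order. Its log2 interval had no lower end, reached 2.96 and held 0. MYH7 had no counts in either library. A link between these markers and the M1 share was not tested. The 2 forms differ by mutually exclusive coding exons of 167 bases, shown here because reads over them tell M1 from M2; each is exon 9 of its transcript in GENCODE 29, read on the minus strand, and capitals mark the 62 bases at which they differ. The M1 exon lies at chr15:72203022-72203188 and the M2 exon at chr15:72202454-72202620.
M1 exon: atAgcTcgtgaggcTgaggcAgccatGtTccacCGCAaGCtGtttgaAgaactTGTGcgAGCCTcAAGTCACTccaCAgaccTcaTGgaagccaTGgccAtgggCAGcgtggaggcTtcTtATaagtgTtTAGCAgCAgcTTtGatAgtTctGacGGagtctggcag
M2 exon: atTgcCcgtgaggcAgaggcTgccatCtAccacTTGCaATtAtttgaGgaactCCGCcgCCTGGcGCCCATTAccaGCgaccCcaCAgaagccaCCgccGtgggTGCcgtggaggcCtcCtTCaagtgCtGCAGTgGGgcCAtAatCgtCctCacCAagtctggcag

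Other genes showed shifts of similar size. In LDHA, NM_001165415 held 42.9% of gene TPM in the tRF-3004b library and 26% in the control library. In HK1, NM_001322366 held 91% in the tRF-3004b library and 76.2% in the control library. The non-coding GAPDH transcript NR_152150, of 763 bases, held 46.3% in the tRF-3004b library and 57.2% in the control library. PFKM, with 25 annotated transcripts and 104 counts in the tRF-3004b library, differed most: NM_000289 held 19.9% there and 60.7% in the control library. LDHB's main transcripts NM_001315537 and NM_002300, of equal length, were given the same share in each library, so they cannot be told apart.

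**Figure D5:**
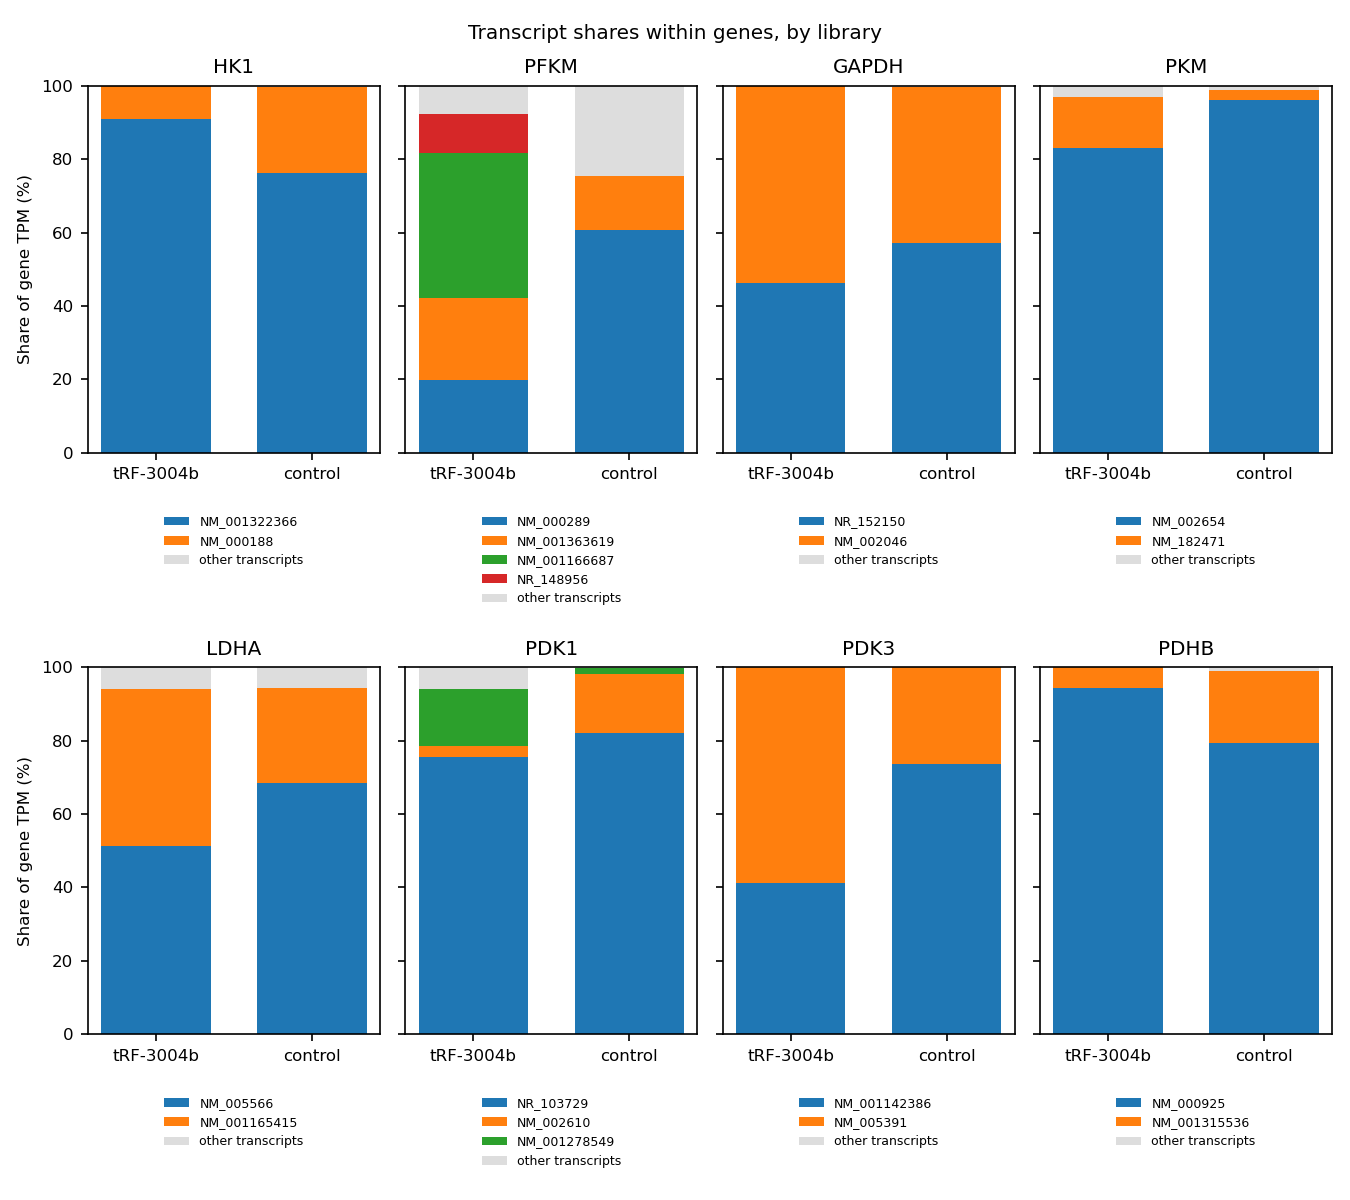
Share of gene TPM (percent) held by each transcript with at least 10% in either library, in the tRF-3004b library (left bar) and the control library (right bar), for the 8 genes in which a share differed by at least 10 percentage points. The PKM panel shows the M1 transcript NM_182471 at 14% in the tRF-3004b library and 2.83% in the control library.

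A site complementary to bases 2 to 8 of tRF-3004b, AGATTTG, was searched in 3' UTRs. For each gene this was the GENCODE 29 UTR matched to its most abundant coding transcript with such a match. That UTR can be shorter than the one of the counted transcript. For PDK1 NM_002610 and PDK3 NM_001142386, of 14072 and 12720 bases, only 1579 and 673 UTR bases were searched. Sites outside the searched bases would be missed. The site was found in 4 of the 33 genes (12.1%) and in 14.8% of the 12224 measured genes that could be searched. SLC2A13 held 3 sites, and PFKFB2, SLC2A3 and SLC2A11 held 1 each. All 4 had log2 ratios below 0, at -1.29, -1.79, -0.93 and -0.22, where 7627 of all 13750 genes were below 0, and the interval of SLC2A11 held 0. Over the searched genes, the median log2 ratio was -0.25 for the 1806 with a site and -0.08 for those without. These medians are not corrected for length. The searched 3' UTRs of these 4 genes ran from 1460 to 5452 bases, against a median of 926 searched bases over the 33 genes. With the length trend removed the 4 genes stood at -0.94, -1.44, -0.77 and -0.14. Of the 29 genes in which no site was found, SLC2A12 was the lowest, and PFKFB4, SLC2A10 and PFKL were also among the low ones. The control RNA's complementary site was found in none of the 33 genes and in 0.221% of the 12224. The sites are given on GRCh38 with their flanks, the site itself in capitals. A match is a description of letters and binding was not measured.
PFKFB2 (chr1:207075821-207075843, plus strand): actatgacAGATTTGaaagagaa
SLC2A11 (chr22:23886047-23886069, plus strand): aattggtcAGATTTGcctttttt
SLC2A13 (chr12:39758771-39758793, minus strand): agatacatAGATTTGtctctgtg
SLC2A13 (chr12:39757483-39757505, minus strand): ttatttttAGATTTGgtgaacat
SLC2A13 (chr12:39757225-39757247, minus strand): catgctgcAGATTTGatagaggt
SLC2A3 (chr12:7920720-7920742, minus strand): agagtagaAGATTTGatgctgga

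Other genes of glucose metabolism were read from 7 further lists of 71 genes, of which 42 had a mean CPM of at least 1. None of the 42 was at least 2-fold higher, against 12.2% of all genes, and 6 were past 2-fold lower by their log2 ratio (14.3%, against 14.2%). Of the 42 intervals, 12 lay above 0 (28.6%, against 23.3%) and 14 below (33.3%, against 28.6%). Those past 2-fold lower were ARRDC4, TXNIP, PCK2, PDPR and LDHC, and GAPDHS, whose place there rests on the 0.5 counts added, since it had 0 counts in the tRF-3004b library. ARRDC4, an arrestin that lowers glucose uptake, had 19.7 CPM in the tRF-3004b library and 74.6 CPM in the control library, a log2 ratio of -1.92 (interval -2.45 to -1.44). TXNIP, its relative that removes GLUT1 from the surface, had 23.6 and 52.3 CPM in the same order, at -1.14 (interval -1.63 to -0.70). In that list of sensing and control genes, 7 of 9 were measured; HIF1A, the hypoxia factor that drives many glycolytic genes, was the highest at 0.71 (interval 0.54 to 0.86), followed by MLX, the partner of the glucose-sensing factors, at 0.47.

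The remaining GLUT and SGLT transporters and the tissue-specific isoenzymes had few counts. None of the 8 other transporters reached a mean CPM of 1, and 6 of the 19 other isoenzymes did. The highest of these was BPGM, which makes 2,3-bisphosphoglycerate, at 0.98 (interval 0.64 to 1.31), and ADPGK, an ADP-dependent glucokinase, was at -0.26. GAPDHS, the sperm form of GAPDH, had 0 counts in the tRF-3004b library and 46 in the control library. With 3 counts put in place of that 0, it would be 1.37-fold lower, and its log2 interval ended at -0.09. LDHC, the testis form of LDH, had 5 counts in the tRF-3004b library and 148 in the control library, at -1.37. Of the carriers, MPC2 and MPC1, which bring pyruvate into mitochondria, were at 0.68 and 0.62, and the lactate exporter SLC16A1 and EMB, a chaperone of such carriers, at -0.09 and -0.73. All 6 pyruvate dehydrogenase partners were measured, from PDPR, a regulator of its phosphatase, at -1.10 and PDP1 at -0.36 to DLAT at -0.09 and PDP2 at 0.29.

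The side branches showed no common direction. All 7 pentose phosphate genes lay within 2-fold, with TKT at -0.49 and RPIA at -0.36 the lowest of the well-counted ones and TALDO1 at 0.29 and PGD at 0.33 the highest. Of 14 genes of gluconeogenesis and glycogen entry, 10 were measured. PCK2, the mitochondrial PEP carboxykinase, had 11 counts in the tRF-3004b library and 662 in the control library, at -2.41 (interval -3.43 to -1.57). PGM1, which links glycogen to glycolysis, was at -0.63, PGM2 at 0.39 and UGP2, which makes UDP-glucose, at 0.71.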

How the data were processed

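Poly-A RNA of 2 HEK293T libraries was analysed. Per the submitters' processing notes, the tool was kallisto 0.46.1 and the build GRCh38. What the authors deposited, per the file headers, is an estimated count, a TPM value and the length and effective length in bases for each of 70866 RefSeq transcripts. The deposited TPM keeps no depth. Neither the strand setting nor the annotation release is stated; the kit is directional, per the labels.

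Transcripts were named with a RefSeq table on GRCh38 (70239) and GENCODE 29 (299); 328 stayed unnamed, with 0.0713% of tRF-3004b and 0.0723% of control counts, and were left out. Each gene's estimated counts were added up and rounded, and library sizes scaled by TMM (edgeR 4.0.16, R 4.3.3). No test was run, since 1 library per group leaves no spread. The log2 ratio adds 0.5 counts at a common library size, and the 95% interval, computed without them, is Clopper-Pearson and conditional on the sum of both counts. The same holds for pairs of genes, with the exact conditional interval of the odds ratio. Without molecular identifiers, reads need not be separate molecules, and intervals and floors cover counting error only. Main counts of genes used a mean CPM of at least 1 and a fold of 2. All member genes are named; of the other lists, the 2 highest and the 2 lowest at a mean CPM of 10 or more were to be named, and the genes at 0 or with a role in a result were added after their values were seen. The members and lists were chosen with earlier results of these data known. Shared sequence means at least 10% of a gene's 31-base words found in another gene's GENCODE 29 transcripts, on either strand. Alternatives were DESeq2 1.42.0 size factors, total counts, gene TPM with 1 added, 5 counts added, removal of the length trend in 10 bins, sums over genes sharing sequence, a mean CPM of at least 10 and no filter. The computations were tested on simulated counts. Python 3.11.15, scipy 1.17.1 and matplotlib 3.10.9 were used.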

Additional observations from a re-analysis of the deposited data

How the results depend on the processing

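The count of genes at least 2-fold higher was 2, and became 1 with total counts, with 5 counts added, with the length trend removed and at a mean CPM of at least 10, and 0 with gene TPM and 1 added. The count at least 2-fold lower was 5, and became 8 with gene TPM and 1 added, where SLC2A3, PFKL and PDK1 joined, and 3 with the CPM filter at 10. It was 6 with total counts, where PFKL joined, 4 with the length trend removed, where SLC2A13 dropped out, and 4 with sums over shared sequence, where SLC2A12 did. The median of the 33 genes ran from -0.27 with gene TPM to 0.21 when the mean CPM had to reach 10. No gene past 2-fold changed sign under any alternative run. SLC2A12 moved to -0.42 when summed with TBPL1. PDK3 against PDK1 moved from 0.44 by counts to 1.08 by TPM; the cause was not tested. Depth limits the genes with few tRF-3004b counts, such as PFKFB4 and ENO2 with 2. No paired analysis was possible because each group has 1 library.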

Other observations

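The promoters of 31 of the 33 genes were in the RefSeq table (GRCh38.p14) and were searched on both strands for ACGTG, the core to which hypoxia-inducible factors bind in one of its forms. The motif was in 12 of the 31 promoters (38.7%) and in 26.9% of the 10906 promoters of measured genes. The other form of the core, GCGTG, was in 17 (54.8%, against 51.2%). CACGTG, the E-box of MYC and the glucose-sensing factors, was in 5 (16.1%, against 10.2%), and each CACGTG holds ACGTG on both strands. TGATGNAA, part of the ATF4 element, was in 1 (3.23%, against 1.61%). LDHA, at a log2 ratio of 0.91, had 5 matches to ACGTG, and SLC2A13, at -1.29, had 2, both within a CACGTG. PKM, TPI1, PGAM1, PDK1 and SLC2A12 had none. The 2 promoters below were chosen after their values were seen, as genes with the same letters and opposite differences; capitals mark ACGTG on either strand. A match is a description, not a site.
LDHA (chr11:18394313-18394612, plus strand): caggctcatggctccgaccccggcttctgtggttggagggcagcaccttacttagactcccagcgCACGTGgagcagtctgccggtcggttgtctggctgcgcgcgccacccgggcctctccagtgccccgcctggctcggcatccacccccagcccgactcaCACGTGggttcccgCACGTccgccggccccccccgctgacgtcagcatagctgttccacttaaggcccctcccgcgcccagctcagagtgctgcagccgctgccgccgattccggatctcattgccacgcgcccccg
SLC2A13 (chr12:40106032-40106331, minus strand): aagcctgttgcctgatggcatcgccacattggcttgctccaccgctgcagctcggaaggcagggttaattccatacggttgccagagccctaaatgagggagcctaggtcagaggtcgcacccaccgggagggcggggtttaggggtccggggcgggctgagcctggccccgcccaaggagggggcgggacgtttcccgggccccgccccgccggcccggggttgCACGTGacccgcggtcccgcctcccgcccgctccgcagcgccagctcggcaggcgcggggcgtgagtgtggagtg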
